A study of Mus musculus with 2 samples.

Results

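The Snrpn-Ube3a locus is a stretch of mouse chromosome 7 (mm10) whose genes are expressed from 1 parental copy in neurons. Its 7 genes, Snrpn, Snurf, Snhg14, Ube3a, Ndn, Magel2 and Mkrn3, were taken by exact gene symbol, out of 55536 annotated genes, and carry 39 of 141767 annotated transcripts. They were measured in total RNA from the hippocampus of female B6CASTF1/J mice aged 25 days, a hybrid strain with 1 parent from C57BL/6 and the other from CAST. The tissue is labelled as a layer of hippocampus. There is 1 group, with biological replicates 1 and 2, as stranded libraries reduced for ribosomal RNA. Each started from 300 ng, and ERCC spike-ins were included. The replicates have separate biosamples and the same donor entry, so whether their spread is one between animals cannot be told. With 1 library against 1 there is no test and no p-value. The libraries held 34919989 expected counts in replicate 1 and 41206890 in replicate 2.

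From the paternal copy of this region, in mouse and human, come the messengers of Snurf and Snrpn, the long noncoding RNA Snhg14 that carries small nucleolar RNAs in its introns, and the intronless genes Ndn, Magel2 and Mkrn3. In neurons Snhg14 runs on into the opposite strand of Ube3a and silences the paternal copy of that gene, so that neuronal UBE3A is made from the maternal copy. Loss of the paternal genes underlies Prader-Willi syndrome in humans, and loss of maternal UBE3A underlies Angelman syndrome. The deposited values add both parental copies together, so parental origin was not analysed here. In bulk tissue, fewer cells of a type and less RNA per cell cannot be told apart.

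The positions given are those of GENCODE M21. On the minus strand, Snrpn (ENSMUSG00000102252.5, chr7:59982495-60140219) encodes SmN, the neuronal counterpart of the spliceosomal protein SmB. Snurf (ENSMUSG00000102627.1, chr7:59995449-60005049) encodes a small protein from an open reading frame upstream of the Snrpn one. Snhg14 (ENSMUSG00000100826.6, chr7:59307924-59975759) follows Snrpn on the same strand, and Mkrn3 (ENSMUSG00000070527.3, chr7:62417593-62420139) encodes a makorin RING-finger protein. On the plus strand, Ube3a (ENSMUSG00000025326.12, chr7:59228750-59311536) encodes an E3 ubiquitin ligase. Ndn (ENSMUSG00000033585.5, chr7:62346569-62350262) encodes necdin, and Magel2 (ENSMUSG00000056972.6, chr7:62377010-62381640) another member of the MAGE family.

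The annotated Snurf transcript, Snurf-201, is 216 bases long and opens with a start codon and ends with a stop codon. It is shown whole because its reads can also belong to other transcripts of the locus. Its 14 bases from exon 1, in capitals, are followed by 96 bases of exon 2 and 106 of exon 3.
Snurf-201: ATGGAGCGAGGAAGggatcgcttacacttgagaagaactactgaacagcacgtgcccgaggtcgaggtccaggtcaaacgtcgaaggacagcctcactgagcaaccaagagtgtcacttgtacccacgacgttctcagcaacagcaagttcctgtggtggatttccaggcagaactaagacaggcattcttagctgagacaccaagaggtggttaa

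All 216 bases occur in Snrpn-201, from base 63 to base 278, and at bases 16 to 231 of a transcript of Gm38393. Gm38393 (chr7:59974149-60005064) is a further annotated gene that shares exons with both. Snrpn-202, the other Snrpn transcript, starts 135.108 kb upstream of Snrpn-201 and enters the shared exons from a different first part. It holds all Snurf bases of exons 2 and 3 and lacks the 14 of exon 1. The 30 bases across that junction are set out for both Snrpn transcripts, with the 14 before exon 2 in capitals. They match at 9 of those 14.
Snrpn-201: ATGGAGCGAGGAAGggatcgcttacacttg
Snrpn-202: CTGAAGCCCAGAAGggatcgcttacacttg

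RefSeq promoter windows (GRCm38.p6, 250 bases before to 50 after each start) were found for all 7 genes and give 8 distinct starts. The 250 bases before 2 Snrpn starts are shown, since the deposited tables differ on which of these starts the Snrpn reads came from. The main start, shared with Snurf, is preceded by chr7:60005200-60005449. The second upstream start, which lies beside that of Snrpn-202, is preceded by chr7:60140226-60140475. Both are on the minus strand, and neither overlaps an exon of that strand in GENCODE M21. Capitals mark GCATGCG on either strand, a motif noticed after the sequences were seen, whose copies on the 2 strands overlap.
Main Snrpn and Snurf start: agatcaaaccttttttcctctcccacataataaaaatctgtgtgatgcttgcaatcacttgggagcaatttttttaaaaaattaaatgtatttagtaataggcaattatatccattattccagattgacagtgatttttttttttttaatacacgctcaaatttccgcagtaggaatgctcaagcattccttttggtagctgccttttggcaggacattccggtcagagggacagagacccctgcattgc
Second upstream Snrpn start: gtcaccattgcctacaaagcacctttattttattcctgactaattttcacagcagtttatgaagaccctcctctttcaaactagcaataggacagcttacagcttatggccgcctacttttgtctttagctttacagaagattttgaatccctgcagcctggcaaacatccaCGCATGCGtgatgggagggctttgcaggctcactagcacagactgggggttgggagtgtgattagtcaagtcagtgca

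The motif, searched on both strands, was in 5 of the 8 windows, against 3.57% of 32817 RefSeq windows of the same length. A match in letters is a description and not a binding site. The 5 windows are the 4 at Snrpn starts, one of which is also the RefSeq start of Snhg14, and that of Ndn. All 250 bases before the RefSeq start of Ndn lie inside the exon of Ndn-201 in GENCODE M21, the transcript measured here. The windows of Ube3a, Magel2 and Mkrn3 held no match. At the main Snrpn start it begins at base 37 of the transcribed side, and at the others 23 to 78 bases before the start. The 30 bases around each match are chr7:60005150-60005179, chr7:60048031-60048060, chr7:60140285-60140314 and chr7:60450222-60450251 on the minus strand and chr7:62348243-62348272 on the plus strand, in that order. At the 3 upstream Snrpn starts, 23 of the 30 bases were identical, so these windows are related in sequence and are not separate cases.
Snrpn and Snurf, main start: cagccattgcctgggaCGCATGCGtaggga
Snrpn, first upstream start: gcaaacatgcaCGCATGCGtcgttgaaggt
Snrpn, second upstream start: gcaaacatccaCGCATGCGtgatgggaggg
Snrpn and Snhg14, farthest start: gcaaacatccaCGCATGCGtgattggaagg
Ndn: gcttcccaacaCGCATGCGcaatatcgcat

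Levels are in TPM (a share of all transcripts, corrected for length). The first of 2 deposited quantifications is in the RSEM column format and the second, of the same libraries, in the kallisto format. In the first, 6 of the 7 genes reached 1 TPM in both libraries, and their means ran from 0.685 to 1024 TPM. The order was Snurf, Snhg14, Snrpn, Ndn, Ube3a, Mkrn3 and Magel2. Ndn and Ube3a did not differ beyond their spread, and exchanged places in the second quantification. Snhg14 and Snrpn kept their order in both.

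Snurf was listed at 0 in both libraries of the second quantification. In the first it had 1053 TPM in replicate 1 and 994 in replicate 2, a mean of 1024 ± 42.3 (SD, n = 2). That mean was rank 12 of 22015 nuclear protein-coding genes.

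Snrpn had 529 and 560.2 TPM in replicates 1 and 2 in the second quantification, rank 133 among the same genes. In the first it had 362 and 369.75 TPM, a mean of 366 ± 5.49 (SD, n = 2), rank 89. In the first quantification the 2 libraries lay closer together for it, relative to the mean, than for the other members above 10 TPM.

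Snhg14 had 1091 TPM in replicate 1 and 841 in replicate 2 in the second quantification, a mean of 966 ± 177 (SD, n = 2). In the first it had 699 and 526 TPM, a mean of 612 ± 122. Among 13374 long noncoding genes it stood at rank 4 in the second and at rank 6 in the first. Relative to its mean it had the widest spread of the 7 genes in both.

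Ube3a was at 89.5 ± 2.48 TPM (SD, n = 2) in the second quantification, and in the first at 53.2 and 58.0 TPM in replicates 1 and 2, a mean of 55.6 ± 3.40. Ndn, a growth suppressor of postmitotic neurons, was at 87.2 ± 11.0 TPM in the second, and in the first at 52.3 and 60.7 TPM, a mean of 56.5 ± 5.95. Their depth was 6313 and 7554 expected counts for Ube3a and 4524 and 6559 for Ndn.

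Mkrn3 and Magel2, from the same 73.571 kb as Ndn, were close to the limit of 1 TPM. Mkrn3 had 1.45 and 1.70 TPM in replicates 1 and 2 in the second quantification, and 1.05 and 1.13 in the first, on 62 and 83 expected counts. Magel2 had 1.03 TPM in each library of the second and 0.65 and 0.72 in the first, on 71 and 98 counts. Both stayed under the minimum of 200 counts used for ratios, so 5 of the 7 genes entered those. Magel2 is known for its expression in the hypothalamus, and in the first quantification 0 of 8 hypothalamic markers (Pomc and Agrp among them) reached 1 TPM in both libraries, with Hcrt and Sim1 at 0 counts. In the second, Pomc was at 2.10 and 2.38 TPM and Oxt at 1.66 and 1.45 in replicates 1 and 2, and Hcrt and Sim1 were below 1 TPM. The summed level of the 8 was 2.60 and 3.01 TPM in the first. All 10 markers of the hippocampal fields reached 1 TPM in the first, with a sum of 599 and 588 TPM.

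**Figure D1:**
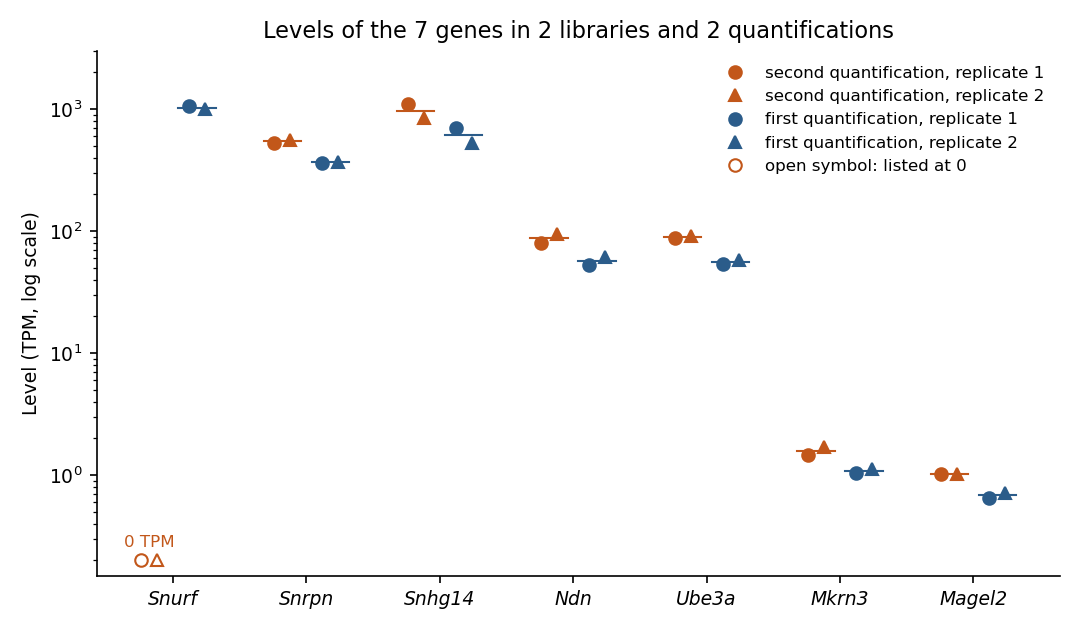
Level of each of the 7 genes in TPM on a log axis, with circles for replicate 1, triangles for replicate 2 and a line at the mean of 2 libraries, for the second quantification (left of each pair) and the first (right). Snurf is at 1024 TPM on average in the first and listed at 0 in the second (open symbols). The other 6 genes lie in the same order in both, except that Ndn and Ube3a change places.

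The genes differ in structure as well as level. Ndn, Magel2 and Mkrn3 have 1 exon and 1 annotated transcript each, so no reads were divided among transcripts of the same gene. Gm32061, a noncoding gene of the opposite strand to Ndn and Magel2, spans all 3, and Magel2 had a fractional 96.6 estimated counts in replicate 2 of the second quantification. Snrpn has 2 transcripts, Snhg14 15 and Ube3a 18. In none of these 3 did the 2 quantifications name the same leading transcript by TPM, and by counts they did so for Ube3a alone.

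For Snurf and Snrpn the 2 quantifications gave the same region to different transcripts. In the second, Snrpn-202 had 16615 and 21267 estimated counts in replicates 1 and 2, against 705 and 1113 expected counts in the first. For Snrpn-201 the second quantification had 6.62 and 0 counts, and the first had 15309 and 19328. Snurf-201 had 0 counts in both libraries of the second quantification and 2965 and 3492 in the first. Each library therefore shows the same exchange, with the upstream-start transcript holding all but at most 0.0434% of Snrpn TPM in the second quantification, and 4.09% and 5.07% in the first. The tables do not hold the reads that cross the junctions into exon 2, so which start they came from was not tested.

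Summed over its transcripts, Snrpn had 16622 and 21267 counts in replicates 1 and 2 in the second quantification, and 16013 and 20441 in the first. Snurf plus Snrpn thus had the same 16622 and 21267 counts in the second, and 18978 and 23933 in the first. For that sum the second was at 0.876 and 0.889 of the first. With Gm38393 added, which was chosen after its values were seen, these became 0.910 and 0.914. Most of the added counts were on Gm38393-203, at 2165 and 2049 in the second quantification and 1841 and 1757 in the first. That transcript, at chr7:59976740-59980676, lies outside Snurf and Snrpn, so these ratios do not measure shared reads alone. In TPM the sum of Snurf and Snrpn was 544 ± 22.3 in the second and 1389 ± 36.8 in the first (SD, n = 2). Of that sum Snurf held 0% in the second quantification and, in the first, 74.4% and 72.9% in replicates 1 and 2. Of the counts in the first it held 15.6% and 14.6%.

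TPM divides counts by effective length, the number of positions a fragment can start from. In the first quantification that length was 117 bases for Snurf, and 1839 and 1840.3 for Snrpn. A count on Snurf thus weighs many times more in TPM than a count on Snrpn. The file's posterior SD of the Snurf count was 29.6 in replicate 1 and 34.2 in replicate 2. That error covers the split of reads within the model and not the choice of model.

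**Figure D2:**
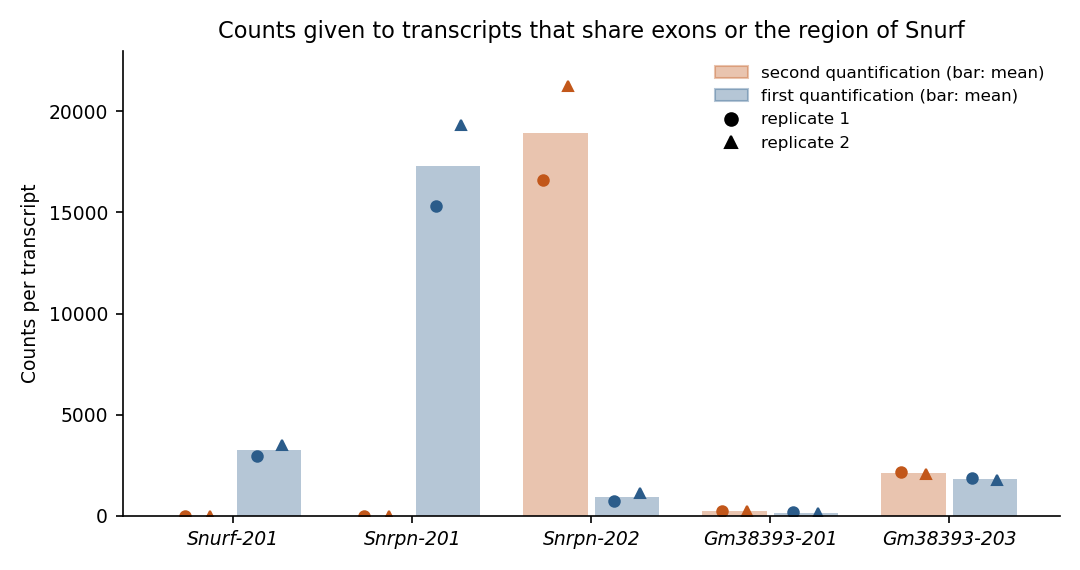
Counts per transcript for Snurf-201, the 2 Snrpn transcripts and the 2 Gm38393 transcripts with most counts in the first quantification, second quantification left and first right, with bars for means and symbols for the 2 libraries. The counts stand on Snrpn-202 in the second quantification and on Snrpn-201 and Snurf-201 in the first.

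Levels of the 2 quantifications were set side by side after both were rescaled over nuclear protein-coding genes, since these held 73.5% and 74.0% of TPM in the second and 43.3% and 42.0% in the first. Across the genome 2.47% of 12955 genes differed past 2-fold the same way in both libraries. Of the 5 members with 200 counts, 1 did so, Snurf, which was lower in the second, as were 1.98% of all genes. At the floor of 3 counts for the second quantification, Snurf was at least 531-fold higher in the first in replicate 1, and at least 598-fold in replicate 2. Snrpn had 0.861 and 0.859 of its first-quantification level in the second, and Ndn 0.896 and 0.887. Snhg14 had 0.920 and 0.907, and Ube3a 0.971 and 0.892. The median log2 ratio of the 5 was -0.16 in replicate 1 and -0.17 in replicate 2, against -0.08 and -0.10 for all genes tested.

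Between the libraries, 0 of the 5 members with 200 counts were past 2-fold, where 0.825% of 12962 genes were. Ratios here are replicate 2 over replicate 1 in TPM, with exact Clopper-Pearson 95% intervals that cover counting error only. Snhg14 was lower in replicate 2, at a ratio of 0.753 (0.737 to 0.769). Ndn was higher, at 1.16 (1.12 to 1.21), and Ube3a at 1.09 (1.05 to 1.13). Snrpn was at 1.02 (1.00 to 1.04) and Snurf at 0.943 (0.898 to 0.991). Mkrn3, at 1.08 (0.765 to 1.52), and Magel2, at 1.11 (0.808 to 1.53), had wide intervals that include 1 at this depth. An interval that leaves out 1 is not a test, since scaling and the assignment of reads to transcripts are not covered.

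Small ratios of this size depend on the scaling. The median log2 ratio of all genes was -0.07 in TPM, 0.02 after TMM or DESeq2 scaling and -0.17 after scaling by spike-ins, so the members are also given relative to it. The 3 scalings multiply a whole library by 1 factor, so relative to that median they give the same value by construction. They are not separate checks. Over the deposited TPM, the 3 scalings and the second quantification, Snhg14 lay 0.33 to 0.38 below that median on the log2 scale. Ndn lay 0.28 to 0.30 above it and Snrpn 0.09 to 0.13 above it. Snurf was 0.01 to 0.02 below it in the 4 of these where it has a value. For Ube3a the range was 0.00 to 0.20 above it. Relative to no change, the sign turned for Snrpn, Ube3a and Mkrn3 with spike-ins, at -0.08, -0.17 and -0.01, and for Snurf with TMM or DESeq2, at 0.00.

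The Ube3a range goes with its transcripts. Its counts in replicate 2 were 1.20 times those in replicate 1, and its mean effective length was 4930 bases in replicate 1 and 4332 in replicate 2, which moves TPM and not counts. The longest transcript named here, Ube3a-203 of 9856 bases, held 31.6% and 30.5% of Ube3a TPM in replicates 1 and 2 in the second quantification. In the first it held 39.0% and 34.6%. By counts it led in both, with a mean of 5293 estimated counts in the second and 5381 expected counts in the first.

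By TPM, Ube3a-211 led in the second quantification, at 34.4% and 36.8% in replicates 1 and 2, and Ube3a-203 in the first. Ube3a-211, of 579 bases, had 30.2 and 33.6 TPM in replicates 1 and 2 in the second quantification, and 5.87 and 9.92 in the first. Ube3a-209, of 616 bases, had 0.417 and 1.60 TPM in the second and 11.6 and 12.9 in the first. The 2 quantifications thus placed the TPM of short models on different ones. For Ube3a-209 this was on 5.82 counts in the second and 172 in the first, as means of 2 libraries. For Ube3a-211 the mean counts were nearer, at 152 in the second and 105 in the first. Its effective length was 235 and 238 bases in replicates 1 and 2 in the second, and 480 in the first. Ube3a-201, of 4911 bases, held 17.7% ± 0.910 in the second and 13.5% ± 2.55 in the first (SD, n = 2). Ube3a-207 was at 5.58 and 7.99 TPM in the second, and at 0 and 3.61 in the first.

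What the quantifications shared was the class of transcript. The 11 Ube3a transcripts annotated as protein-coding held 94.1% and 96.5% of its TPM in replicates 1 and 2 in the second quantification, and 93.5% and 96.5% in the first. Retained-intron transcripts, of which there are 4, held 2.55% and 1.54% in the second and 4.06% and 2.65% in the first. Processed transcripts without a coding frame made up the remainder, 3.31% and 1.92% in the second and 2.44% and 0.800% in the first. Both noncoding classes held a lower percent in replicate 2 in both quantifications. The processed transcripts did so on 11 and 9.97 counts in replicates 1 and 2 in the second, and on 14.1 and 6.26 in the first. These are far under the minimum of 200 counts used for ratios.

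**Figure D3:**
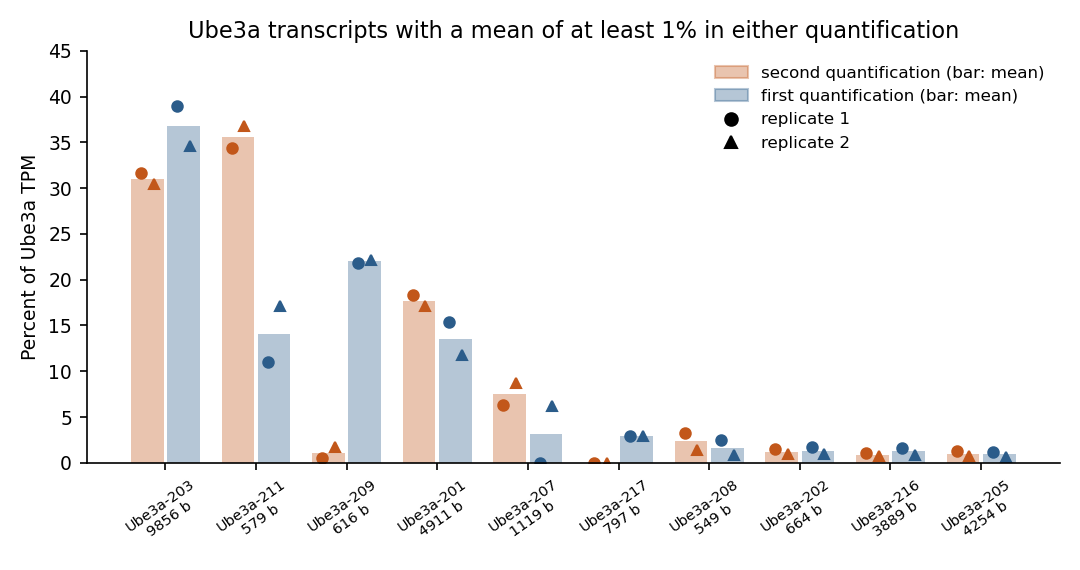
Percent of Ube3a TPM held by each transcript with a mean of at least 1% in either quantification, second left and first right, with bars for the mean of 2 libraries and symbols for each library; lengths in bases stand under the names. Ube3a-203 and Ube3a-201 are high in both, while Ube3a-211 is higher in the second and Ube3a-209 in the first.

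Snhg14 is annotated in 15 transcripts that together span 667.836 kb, starting 29.352 kb past the Snrpn-201 start and ending inside Ube3a on the opposite strand. In the second quantification its leading transcript Snhg14-206 was at 285 and 216 TPM in replicates 1 and 2, against 34.1 and 27.3 in the first. The leader of the first, Snhg14-203, was at 219 and 194 TPM in the second and at 337 and 275 in the first. The transcripts Snhg14-210 and Snhg14-207 were again higher in the second. The TPM of Snhg14-210 was 215 and 130.3 in the second and 68.1 and 42.6 in the first. That of Snhg14-207 was 185 and 152 in the second and 52.9 and 40.7 in the first. Snhg14-208 was at 6.30 and 4.72 TPM in the second and at 126 and 75.4 in the first. The shares of these 5 models differed between the quantifications, while the transcript Snhg14-209 held 2.43% and 2.57% of Snhg14 TPM in the second and 2.39% and 2.44% in the first.

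The lower Snhg14 level in replicate 2 was seen in transcripts from both ends of the gene. Of the 10 transcripts with 200 counts, 10 were lower in replicate 2 in both quantifications, at ratios of 0.535 to 0.903 in the second and 0.513 to 0.928 in the first. The 5 that start within 300 kb of the Snrpn-201 start had a median ratio of 0.813 in the second and 0.769 in the first. The 5 that start farther along had 0.734 and 0.597. These transcripts share exons and reads, so they are not separate measurements, and the difference between the near and far ones was not tested. In counts, not corrected for the greater depth of replicate 2, the near ones had 0.969 of the replicate 1 counts and the far ones 0.882 in the first quantification.

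**Figure D4:**
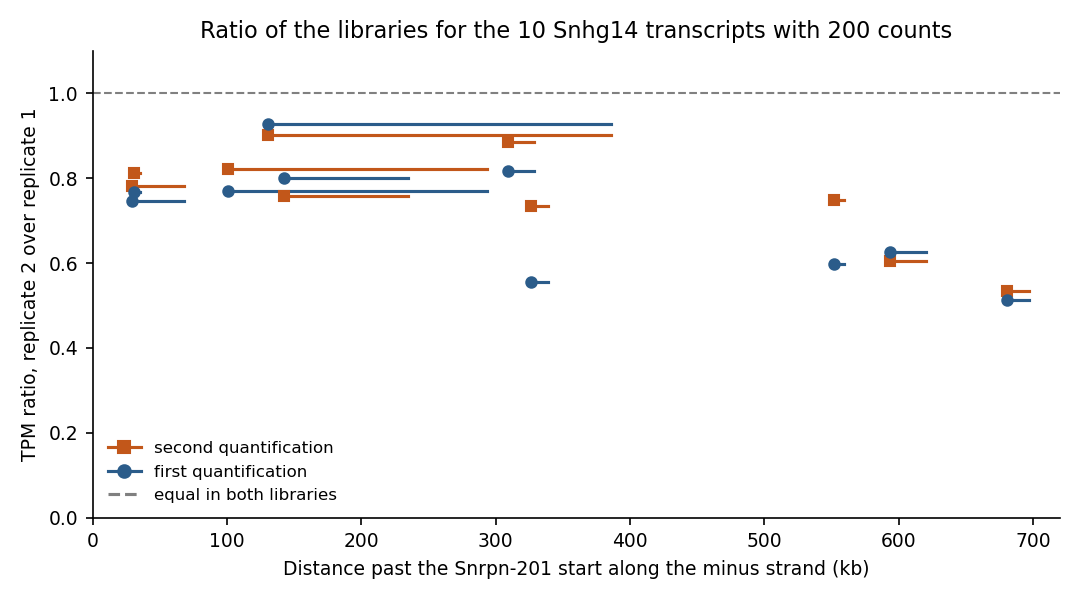
TPM ratio of replicate 2 over replicate 1 (vertical axis) for the 10 Snhg14 transcripts with at least 200 expected counts, each drawn from its start to its end by distance past the Snrpn-201 start in kb, squares for the second quantification and circles for the first. All lie under 1, and the lowest, 0.513 in the first, is the model that ends inside Ube3a.

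The small nucleolar RNAs that Snhg14 is known for could not be measured in these tables. The span of the 7 genes holds 266 annotated genes, of which 210 are small nucleolar RNA genes of 67 to 94 bases, all on the minus strand. They have an effective length of 0 and 0 counts in the first quantification, and 0 counts in the second. The 17 named Snord116l lie from 100.263 to 143.38 kb past the Snrpn-201 start. The value 0 therefore says nothing of their level.

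At its far end Snhg14 meets Ube3a, and 1803 exon bases of the 2 genes lie opposite each other. The libraries are stranded, per the labels, but whether the counting used strand is not given in the sources used here. Across the Ube3a body lie 4 unspliced models on the minus strand, of the annotation class TEC, for models awaiting experiment. Together they had 79.4 and 59.0 counts per kb of effective length in replicates 1 and 2. The 1 such model on the plus strand had 10.3 and 6.19, on 5 and 3 counts.

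The longest of the minus-strand models, 9330162G02Rik (chr7:59223847-59254788), named after its values were seen, covers 26039 bases of Ube3a. It had 2294 counts in replicate 1 and 1760.0 in replicate 2, at 3.09 and 1.90 TPM. That level was 5.80% of the Ube3a TPM in replicate 1 and 3.27% in replicate 2. Gm44560, near the other end of Ube3a, had 5.13 and 2.84 TPM. These 2, the minus-strand models with 200 counts, had TPM ratios of 0.615 and 0.554, while Ube3a itself was at 1.09. The plus-strand model, Gm44830, had 0.43 TPM in replicate 1 and 0.21 in replicate 2, on too few counts for a ratio.

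Noncoding RNA of the region was lower in replicate 2 as a group. Among genes of the span with 200 counts, 10 of 10 noncoding ones were lower in replicate 2 in both quantifications, at a median ratio of 0.623 (0.364 to 0.884) in the first. Of the 5 protein-coding ones 2 were lower, Snurf and Gm38393, at ratios of 0.779 to 1.16 for the 5. Gm38393 is protein-coding by gene class, though none of its 4 transcripts is annotated as protein-coding. A230103L15Rik, a minus-strand TEC model within Snhg14, was past 2-fold lower, at 1.46 TPM in replicate 2 against 4.01 in replicate 1. Gm44831, another TEC model, was past 2-fold lower as well, at 0.99 TPM in replicate 2 against 2.00 in replicate 1. Its ratio was 0.495, and in the second quantification, at 0.503, it was not past 2-fold. Among all genes with 200 counts, 0.725% of all genes were at least 2-fold lower in replicate 2.

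The same held outside the locus for these classes of gene. Genome-wide the median log2 ratio in the first quantification was -0.86 for 174 TEC genes, -0.25 for 142 lincRNA genes and -0.26 for 92 processed-transcript genes, against -0.07 for 12099 protein-coding genes. Lower values in replicate 2 were found for 97.1% of the TEC genes, 86.6% of the lincRNA genes and 64.4% of the protein-coding genes. Snhg14, at -0.41, was within the central 95% of the processed-transcript genes, which ran from -0.84 to 0.23. The part of this class-wide difference in the Snhg14 ratio was not tested.

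**Figure D5:**
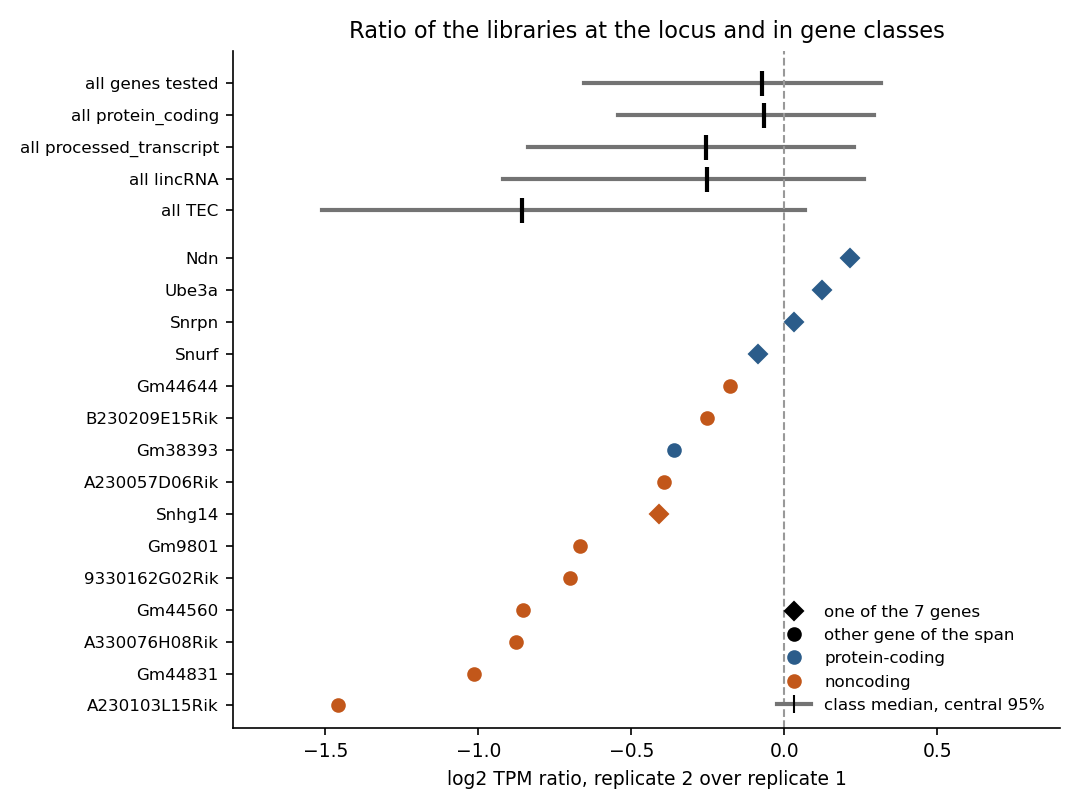
Log2 TPM ratio of replicate 2 over replicate 1 in the first quantification for the 15 genes of the span with at least 200 expected counts (diamonds for the members, circles for others), under the median and central 95% of gene classes over the genome. The noncoding genes of the locus lie to the left of 0 as their classes do, and Ndn, Ube3a and Snrpn lie to the right.

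Genes that work with the products of the locus were present too. SmN takes the place of SmB in neuronal spliceosomes, and Snrpn stood at 7.30 and 6.78 times the TPM of Snrpb in replicates 1 and 2 in the second quantification, and at 8.10 and 7.40 times in the first. All 7 Sm core genes reached 1 TPM in the first quantification. Snrpb was at 72.5 and 82.6 TPM in replicates 1 and 2 in the second and at 47.3 ± 3.73 (SD, n = 2) in the first. Snrpe was at 75.8 and 73.2 TPM in the second and at 29.7 ± 2.03 in the first. Snrpd2 was at 42.5 and 47.6 TPM in the second and at 33.0 ± 2.03 in the first. Of the 6 with 200 counts that were tested, 0 were past 2-fold between the libraries, where 0.825% of all genes tested were.

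Levels of the following gene lists are those of the first quantification. In the MAGE family, to which Ndn and Magel2 belong, 7 of 8 genes reached 1 TPM, Magel2 being the exception. Maged1, a regulator of neuronal cell death, was the highest at 214 ± 10.3 TPM (SD, n = 2). Magee1, at 56.8 ± 0.0990, was close to Ndn, and Mageh1 and Maged2 were at 24.0 ± 1.26 and 18.6 ± 2.77. Among makorins, Mkrn1 was at 55.9 ± 3.75 TPM and Mkrn2 at 16.4 ± 1.65 against 1.09 ± 0.0566 for Mkrn3. The imprinted genes Magel2 and Mkrn3 were thus the lowest of the family members listed.

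All 8 genes of the UBE3A family and its partners reached 1 TPM. Between the libraries 0 of 8 were past 2-fold, where 0.825% of all genes tested were. Ube2l3, which hands ubiquitin to UBE3A, was at 63.5 ± 3.31 TPM (SD, n = 2). Herc2, a ligase that binds UBE3A, was at 55.4 ± 6.89 and thus close to Ube3a itself. Of the complex in which human MAGEL2 acts with TRIM27 on endosomes, all 8 genes reached 1 TPM, among them Usp7 at 57.4 ± 5.26, Vps35 at 54.4 ± 2.60 and Trim27 at 16.5 ± 0.933. Magel2 was at 0.685 ± 0.0495.

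Likeness in level was measured as Euclidean distance of log2(TPM + 1) over 4 values, from 2 libraries and 2 quantifications. The nuclear protein-coding genes outside the locus nearest to Ube3a were Txn2 and Mrpl30, at distances of 0.07 for both. Those nearest to Ndn were Cisd1 and Rgs4, at 0.10 and 0.12. Rps27 and Eef2 were nearest to Snrpn, at 0.10 and 0.13. Snhg14 had no near match among them, Ndrg4 and Slc17a7 being at 0.38 and 0.40.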

How the data were processed

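The authors deposited, for each of 2 libraries, gene and transcript tables with expected counts, TPM and the percent of each gene's TPM held by a transcript. Their columns are those of RSEM, and their source was transcriptome alignments, as the deposited notes say. Another transcript table that the authors deposited was made from reads and has kallisto's columns. Its estimated counts and TPM were summed per gene. The labels give the build mm10, and the notes GENCODE M21. Aligner and versions: not given in the sources used here.

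Members were matched by exact symbol and linked to the other tables by identifier. TPM was used as deposited. Library ratios needed 200 expected counts over both libraries, and a library under 3 counts was set at a floor of 3. The ratio rule was run on simulated counts that had no shift between gene classes and no reads shared by transcripts. That run therefore does not check the rule for these features of the libraries. The ratio of the quantifications used TPM rescaled over nuclear protein-coding genes found in both. TMM factors (edgeR 4.0.16) and DESeq2 1.42.0 size factors were computed in R 4.3.3 on expected counts rounded to whole numbers. All else ran in Python 3.11.15, with scipy 1.17.1, pandas 2.3.3, numpy 2.4.6 and figures by matplotlib 3.10.9. Depth was 34919989 and 41206890 expected counts, and intervals cover counting error only.

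The members, lists and alternatives were chosen with earlier results of these data known. Named were all members, their transcripts among the 4 of highest mean TPM in either quantification, the 2 nearest genes in level, and, per list, up to 5 genes of highest mean TPM plus those at 0 or past 2-fold. A neighbour that this rule names is not reported here. The alternatives tried were the second quantification, scaling by TMM, DESeq2 or spike-ins, TPM rescaled as above, other thresholds, minimums and pseudocounts, and each replicate alone.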

Additional observations from a re-analysis of the deposited data

How the results depend on the processing

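Of the results on the 7 genes, those on Snurf and Snrpn moved most. Their summed level was 544 TPM in the second quantification and 1389 in the first. Rescaled over nuclear protein-coding genes it was 738 in the second and 3258 in the first. With each replicate alone it was 1363 to 1415 TPM, and with Gm38393 added 1412. The Snurf share of that sum was 0% in the second quantification and 15.1% in expected counts, against 73.7% in TPM, and 72.9% to 74.4% with each replicate alone. By counts, 1 of the 3 genes with several transcripts had the same leader in both quantifications, against 0 by TPM. The number of members at 1 TPM was 6 in both quantifications, or 7 in the first at 0.5 TPM or when rescaled. The 6 were not the same genes, since Snurf was under 1 TPM in the second and Magel2 in the first. The number past 2-fold between libraries stayed 0 under every scaling, minimum and threshold listed, and between quantifications 1. The 8 nearest genes were the same with a pseudocount of 0.1. No paired analysis was possible because the labels give 1 group. Depth limits Magel2 and Mkrn3, at 62 to 98 counts a library, and models under 200 counts.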

Other observations

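Levels in this section are those of the first quantification. Around the locus on chromosome 7, protein-coding genes were at levels higher than, close to or lower than those of Ube3a and Ndn. Gabra5, which encodes a GABA-A receptor subunit, was at 76.7 ± 3.51 TPM (SD, n = 2). Herc2 was at 55.4 ± 6.89 TPM, Cyfip1, a regulator of actin and of translation at synapses, at 48.5 ± 4.88, and Nipa1, a magnesium transporter, at 25.5 ± 0.375. Of 38 neighbours found, 22 reached 1 TPM and 8 were at 0 counts in both libraries of the first quantification. The 8 at 0 were 7 processed pseudogenes (Gm18908, Gm18129, Gm30196, Gm3198, Gm7394, Gm19032 and Gm3257) and the snRNA gene Gm23431.

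Imprinted genes elsewhere in the genome were widely present. Of 21 listed, Ndn among them, 20 reached 1 TPM. Between the libraries 0 of the 20 tested were past 2-fold, where 0.825% of all genes tested were. The highest were the noncoding RNAs Meg3, at 606 TPM in replicate 2 against 1075 in replicate 1, and Rian, at 375 against 449. Among the protein-coding ones Nnat, a neuronal membrane protein, was at 274 ± 41.1 TPM (SD, n = 2), Impact, a regulator of translation, at 101 ± 6.89 and Peg3, a zinc-finger protein, at 68.1 ± 4.13. Of 11 genes listed for a known or proposed role in imprints or in the silencing of Ube3a, 11 reached 1 TPM. That role was not tested here. Rbfox1, an RNA-splicing factor, was at 167 ± 17.4 TPM, the corepressor Trim28 at 96.2 ± 0.686, the histone methyltransferase Ehmt2 at 71.3 ± 6.41, the zinc-finger protein Zfp445 at 60.6 ± 7.29 and the DNA methyltransferase Dnmt3a at 38.9 ± 2.43.

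Markers of neurons, astrocytes, oligodendrocytes and microglia were all present. Between the libraries 0 of 14 such markers were past 2-fold, where 0.825% of all genes tested were. A count of 0 in a list this short is near that share and says little of the cell mixture. Snap25, of synapses, was at 796 ± 28.7 TPM (SD, n = 2), Slc1a2, of astrocytes, at 792 ± 67.5, Mbp, of myelin, at 981 ± 9.31 and Csf1r, of microglia, at 33.6 ± 0.346. The members of the locus were measured in this mixture, and their level per cell type was not tested.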
